A study of Bos taurus with 18 samples.

Results

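TNFSF15, VEPH1 and MARCHF3 were examined as genes whose transcript levels rose with protein exposure in the stromal cells of a bovine endometrium-on-a-chip device and not in the epithelial cells of the same devices. The 3 genes were selected on the measured values, as genes with a change after protein exposure that was larger in stromal than in epithelial cells. All 3 passed the filter on low counts, out of 17931 genes tested and 36075 genes in the deposited table. Their identifiers came from the lists of genes altered by rbCAPG that the study made on these samples, and were ENSBTAG00000018069 for TNFSF15, ENSBTAG00000024643 for VEPH1 and ENSBTAG00000006797 for MARCHF3.

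RNA was sequenced from 18 samples, 9 of bovine endometrial epithelial cells (bEECs) and 9 of bovine endometrial stromal cells (bESCs), which came in pairs from 9 devices. Each device was loaded with both primary cell types of 1 of 3 animals, whose uterine tracts came from an abattoir in the late luteal phase. A device received PBS as the vehicle control (VC), or 1 ug/mL of a recombinant bovine protein, which was either CAPG (rbCAPG) or PDI (rbPDI), for 24 h, with n = 3 samples in each of the 6 groups, and replicates 1 to 3 are animals 1 to 3. Medium with the protein flowed along the bEECs, while the bESCs lay in a static chamber on the far side of a porous membrane. CAPG is an actin-capping protein and PDI a protein disulfide isomerase, and both are secreted by the bovine conceptus around pregnancy recognition. The cells were enriched by differential trypsinization rather than sorted, so a sample may hold a few cells of the other type. Both comparisons with VC use the same VC samples.

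TNFSF15 encodes a membrane-bound and secreted cytokine of the tumor necrosis factor (TNF) superfamily, also called vascular endothelial growth inhibitor. It signals through a death domain receptor to the transcription factor NF-kB and is best known as a costimulator of T cells and a restraint on blood vessel growth. VEPH1 encodes a cytoplasmic protein with a pleckstrin homology (PH) domain, a fold that binds membrane phosphoinositides, and has been linked to inhibition of TGF-beta signaling. MARCHF3 encodes a membrane-anchored E3 ubiquitin ligase of the MARCH family, whose members tag membrane proteins with ubiquitin and steer them through endosomes. In the endometrium the epithelium meets the conceptus first, and the stroma beneath it receives signals across the basement membrane.

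Total counts ran from 28206464 to 38124690 in bEECs and from 10072851 to 44253149 in bESCs, and the lowest was rbPDI bESC replicate 1. The labelled cell types were checked with 8 epithelial and 8 stromal marker genes, which were also in the lists the study made on these samples. Over the 3 treatments, 8 of 8 epithelial markers were called lower and 8 of 8 stromal markers were called higher in bESCs. Levels are given as CPM, the counts scaled to a common library total by the TMM method, and changes as log2 differences with standard errors (SE) from 1 edgeR fit to all 18 samples. In bulk RNA, more RNA per cell and more cells of a type cannot be told apart. A gene was called at a Benjamini-Hochberg adjusted p under 0.05 with an absolute log2 difference above 1.

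TNFSF15, the cytokine, was low in bESCs at baseline and rose with both proteins, while its bEEC level was high throughout. In VC bESCs the 3 animals had 6.17, 4.17 and 7.45 CPM. With rbCAPG the bESCs of animals 1 to 3 had 62.2, 157 and 60.3 CPM, and with rbPDI 18.1, 68.5 and 167 CPM. Every exposed bESC sample was above every VC bESC sample, and the highest sample was animal 2 with rbCAPG but animal 3 with rbPDI. In bEECs the values were 132, 208 and 347 CPM with VC, 169, 203 and 262 CPM with rbCAPG, and 158, 220 and 251 CPM with rbPDI. These 3 bEEC groups overlapped, animal 1 was lowest and animal 3 highest in each, and the lowest bEEC sample exceeded all bESC samples except the highest of each protein.

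The change of TNFSF15 in bESCs was 3.98 (SE 0.65, n = 3 per group) on the log2 scale with rbCAPG, or 15.7-fold, and 3.84 (SE 0.64) with rbPDI, or 14.3-fold. Within animals 1 to 3 the fold changes in bESCs were 10.1, 37.8 and 8.09 with rbCAPG and 2.93, 16.4 and 22.4 with rbPDI. In bEECs the log2 changes were −0.11 (SE 0.57) and −0.13 (SE 0.57), with 1 of 3 animals above its VC sample for rbCAPG and 2 of 3 for rbPDI. The size of the bESC change rested in part on single samples. The log2 change with rbPDI was 2.87 without rbPDI bESC replicate 3, and that with rbCAPG was 3.35 without rbCAPG bESC replicate 2. Leaving out VC bEEC replicate 3, the highest of all samples, turned the bEEC changes to 0.32 and 0.30.

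VEPH1, the PH domain gene, had the lowest counts of the 3 genes. In VC bESCs it had 0.22, 0.33 and 0.30 CPM, from deposited counts of 5, 16 and 13.5. With rbCAPG these bESC values were 1.09, 4.19 and 1.48 CPM (40, 226.5 and 64 counts), and with rbPDI they were 3.13, 3.72 and 3.38 CPM (36, 171.5 and 146.5 counts). All exposed bESC samples were above the VC bESC samples, and the rbPDI samples lay close together while the rbCAPG samples were spread by animal 2. In bEECs VEPH1 had 3.51, 7.75 and 4.85 CPM with VC, 1.53, 4.68 and 3.51 CPM with rbCAPG, and 1.45, 3.14 and 2.74 CPM with rbPDI. In bEECs the rbCAPG samples overlapped the VC samples, all rbPDI samples were below all VC samples, and each animal's exposed sample was below its own VC sample.

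In bESCs the log2 change of VEPH1 was 2.95 (SE 0.55) with rbCAPG, or 7.75-fold, and 3.55 (SE 0.57) with rbPDI, or 11.7-fold. Within animals 1 to 3 the bESC fold changes were 4.97, 12.7 and 4.92 with rbCAPG and 14.2, 11.3 and 11.3 with rbPDI. In bEECs the log2 changes were −0.72 (SE 0.49) with rbCAPG and −1.13 (SE 0.49) with rbPDI. Without rbCAPG bESC replicate 2 the bESC change with rbCAPG was 2.13. In the reference gene table, which is of another assembly, the span of VEPH1 holds 3 other genes, among them PTX3, the gene of the inflammatory protein pentraxin 3. There 1 long non-coding RNA gene also overlaps TNFSF15, and none overlaps MARCHF3. No strand option is stated for the counting, so reads cannot be told apart where exons of such genes overlap. Whether their exons overlap was not tested. Of the 18 deposited VEPH1 values, 9 were not whole numbers, against 2 of 18 for TNFSF15 and 2 of 18 for MARCHF3, which shows that some VEPH1 reads were divided with another place or gene.

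MARCHF3, the ubiquitin ligase gene, had the smallest change and the most even values. In VC bESCs it had 24.8, 34.7 and 19.6 CPM, with rbCAPG 77.4, 71.8 and 92.8 CPM, and with rbPDI 55.5, 115 and 142 CPM. All exposed bESC samples were again above the VC samples. Animal 3 had the lowest VC value and the highest value with each protein. In bEECs MARCHF3 had 89.9, 112 and 68.9 CPM with VC, 83.7, 77.8 and 56.0 CPM with rbCAPG, and 65.8, 71.0 and 56.6 CPM with rbPDI. These groups overlapped, and each exposed bEEC sample was below the VC sample of its animal.

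The log2 change of MARCHF3 in bESCs was 1.61 (SE 0.31) with rbCAPG, or 3.06-fold, and 1.99 (SE 0.31) with rbPDI, or 3.96-fold. Within animals 1 to 3 the bESC fold changes were 3.12, 2.07 and 4.73 with rbCAPG and 2.24, 3.33 and 7.23 with rbPDI. In bEECs the log2 changes were −0.32 (SE 0.30) and −0.49 (SE 0.30).

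**Figure D1:**
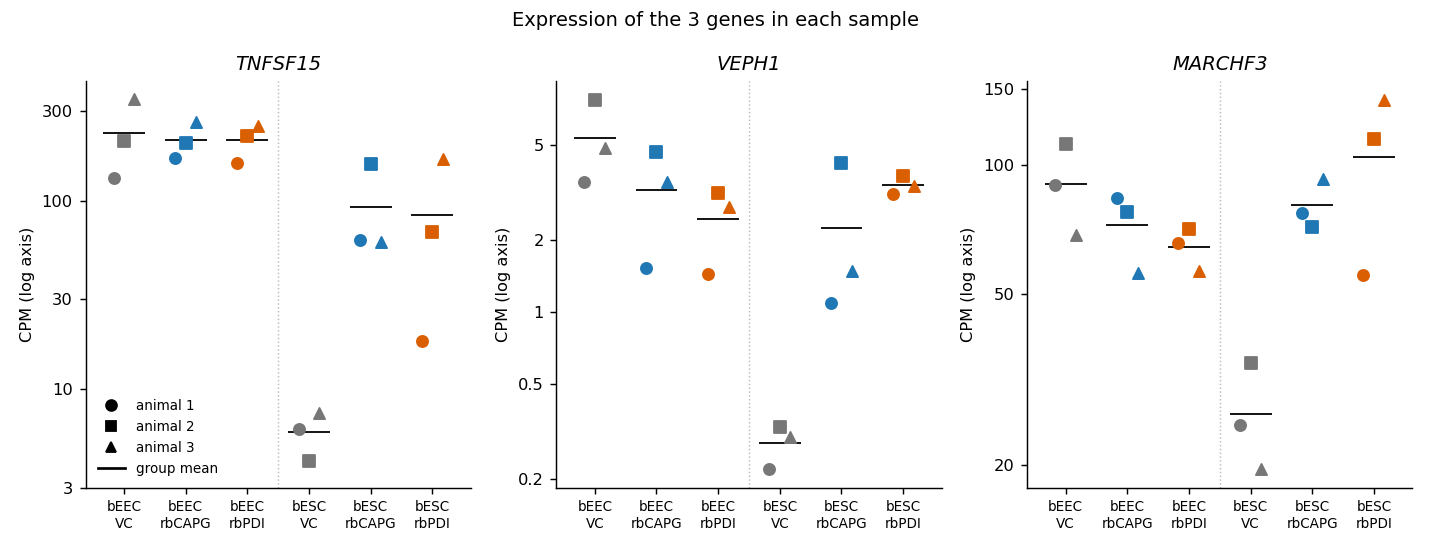
CPM on a log axis of TNFSF15, VEPH1 and MARCHF3 in each of the 18 samples, by cell type and treatment, with a symbol for each animal and a line at each group's mean (n = 3). In each panel the 3 VC bESC samples lie below every other sample of that gene.

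These changes are a description, since they chose the genes. In bESCs 3 of 3 genes had all exposed samples above all VC samples for each protein, as did 3.02% of all tested genes for rbCAPG and 4.10% for rbPDI. The mean log2 change over both proteins was larger in bESCs than in bEECs by 4.03 (SE 0.74) for TNFSF15, 4.18 (SE 0.65) for VEPH1 and 2.20 (SE 0.38) for MARCHF3. These 3 genes were the ones called with a larger mean change in bESCs, or 0.0167% of genes tested, which restates how they were chosen. A larger change in bEECs was called for 22 genes. Ordered by the edgeR p of the difference, the first gene outside was an unnamed gene with 4.59 (SE 0.94). Next came AHI1, a gene of the primary cilium, with 1.63 (SE 0.34). OCLN, which encodes the tight junction protein occludin, followed with 2.44 (SE 0.59). The number of genes so called depended on the fit, since it was 19 with the replicate block within cell type and 18 with DESeq2. It was 0 without VC bESC replicate 1 and 0 without VC bESC replicate 3, so none of the 3 genes was called there. Without VC bESC replicate 2, 1 of the 3 genes was called. The number of genes so called was 1 without each of VC bEEC replicate 1, VC bEEC replicate 2, rbPDI bEEC replicate 3 and rbCAPG bESC replicate 3.

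Baseline in bEECs was compared with the levels the bESCs reached. With VC the log2 difference of bESCs from bEECs was −5.27 (SE 0.69) for TNFSF15, −4.20 (SE 0.57) for VEPH1 and −1.78 (SE 0.31) for MARCHF3, and no VC bESC sample overlapped the VC bEEC samples. The VC samples are part of the contrast that chose the genes, so these differences carry no test.

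In the order of group means, VC bESCs were last for all 3 genes and did not overlap the group above. TNFSF15 ran from 229 ± 109 CPM (SD, n = 3) in VC bEECs through 211 ± 47.0 with rbCAPG and 210 ± 47.0 with rbPDI, which overlapped each other. Next came TNFSF15 in rbCAPG bESCs with 93.3 ± 55.6 CPM, whose samples were all below those of rbPDI bEECs. The rbPDI bESCs followed with 84.6 ± 75.8 CPM and overlapped the rbCAPG bESCs, and VC bESCs had 5.93 ± 1.66 CPM. The means of exposed bESCs thus stayed under the bEEC means, at 44.2% and 40.4% of them.

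VEPH1 ran from 5.37 ± 2.17 CPM in VC bEECs through 3.41 ± 0.294 in rbPDI bESCs, 3.24 ± 1.59 in rbCAPG bEECs, 2.44 ± 0.884 in rbPDI bEECs and 2.25 ± 1.69 in rbCAPG bESCs. Each of these overlapped the next, and VC bESCs had 0.283 ± 0.0568 CPM. MARCHF3 ran from 104 ± 44.3 CPM in rbPDI bESCs through 90.4 ± 21.7 in VC bEECs, 80.6 ± 10.9 in rbCAPG bESCs, 72.5 ± 14.6 in rbCAPG bEECs and 64.5 ± 7.27 in rbPDI bEECs. These groups also overlapped in turn, and VC bESCs had 26.3 ± 7.64 CPM.

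The cell type difference over the 3 treatments was tested. With equal group sizes and equal spread it does not depend on the changes that chose the genes. The VC samples enter both, and the spread was not shown to be equal, so this independence is approximate. The fit had no term for animal or device, so samples of 1 animal counted as independent, and a fit with a replicate block was among the alternatives. TNFSF15 was lower in bESCs by a log2 difference of −2.58 (SE 0.35, 95% interval −3.32 to −1.84, edgeR adjusted p = 5.72e-06). VEPH1 was also lower in bESCs, by −1.41 (SE 0.29, interval −2.02 to −0.80, edgeR adjusted p = 0.00044). Its mean level in bESCs was 5.28% of that in bEECs with VC, 69.5% with rbCAPG and 139% with rbPDI. The VEPH1 difference thus lay mainly in the VC samples, which helped to choose the gene. Its call therefore adds nothing to the VC difference described above. For MARCHF3 the difference was −0.31 (SE 0.17, interval −0.67 to 0.05, edgeR adjusted p = 0.125) and was not called. Thus 2 of 3 genes, VEPH1 mainly through its VC samples, were called lower in bESCs, as were 23.0% of all tested genes. Over the alternatives the adjusted p ran from 1.09e-15 to 3.19e-05 for TNFSF15, from 1.72e-06 to 0.00128 for VEPH1 and from 0.0499 to 0.238 for MARCHF3.

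Levels of epithelial marker genes were set beside those of the 3 genes. In VC bESCs the mean levels of TNFSF15, VEPH1 and MARCHF3 were 2.59%, 5.28% and 29.2% of the VC bEEC means. With rbCAPG they were 44.2%, 69.5% and 111%, and with rbPDI 40.4%, 139% and 162% of the bEEC means at the same treatment. Over the 8 epithelial markers the median of this percentage was 0.613% with VC, 2.68% with rbCAPG and 1.98% with rbPDI, and the highest was that of FERMT1, an adaptor of integrins in epithelial cells, with 33.6%, 14.4% and 13.6%.

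OCLN, MUC1 and RBM47 were taken as the markers that define epithelial cells. OCLN was at 0.284%, 1.32% and 1.62%, MUC1, a mucin of the apical surface, at 0.0558%, 0.0665% and 0.114%, and RBM47, an epithelial RNA-binding protein, at 0.524%, 0.0853% and 0.0423%. Of the other markers, STX19, a syntaxin, was at 0.702%, 4.05% and 2.34%, HNF4G, a nuclear receptor, at 2.37%, 5.43% and 3.89%, CDH26, a cadherin, at 15.0%, 8.75% and 7.27%, and AGR2, a secretory pathway protein of mucus-producing cells, at 0.00148%, 0.00165% and 0.00782%. Relative to bEECs, OCLN, MUC1, STX19, HNF4G and AGR2 were thus higher in bESCs with each protein than with VC. RBM47, FERMT1 and CDH26 were lower relative to bEECs. In bESCs alone 7 of 8 markers had a positive log2 change with each protein, and only RBM47 fell. Other genes of the study's lists that were low in VC bESCs and higher in VC bEECs went both ways. SCIN, GIPC2 and SLCO4A1 had 139, 29.6 and 10.1 CPM in VC bEECs and 0.295, 0.381 and 0.266 CPM in VC bESCs. Their mean log2 changes over both proteins in bESCs were −2.37, −2.04 and 3.11. FERMT1 had bESC means of 5.97, 7.15 and 7.13 CPM with VC, rbCAPG and rbPDI, and bEEC means of 17.8, 49.8 and 52.5. CDH26 had 3.28, 4.38 and 3.31 CPM in bESCs, and 21.9, 50 and 45.5 in bEECs. The lower percentages of FERMT1 and CDH26 thus came with higher bEEC means. AGR2 was near 0 in bESCs, at 0.00688, 0.0474 and 0.203 CPM. The summed level of the 8 markers was 8.85 to 13 CPM in VC bESCs, 10 to 19.6 with rbCAPG and 13.3 to 16 with rbPDI, against 722 to 1560, 3070 to 4370 and 2910 to 4430 CPM in bEECs. Of the 8 markers edgeR called 0 higher with rbCAPG in bESCs, where 4 had an unadjusted p under 0.05 and DESeq2 called 3, and with rbPDI it called 1, where 5 had an unadjusted p under 0.05 and DESeq2 called 3. That marker was OCLN, with a log2 change of 2.82 (SE 0.53, edgeR adjusted p = 0.0402) and bESC levels of 0.261 to 3.24 CPM. With rbCAPG the OCLN log2 change was 2.37 (SE 0.53, edgeR adjusted p = 0.185). In single rbPDI bESC samples TNFSF15 ran from 8.63% of the bEEC mean, in replicate 1, to 79.8%, while FERMT1 ran from 7.36% to 18.1%, CDH26 from 4.78% to 8.79% and OCLN from 0.249% to 3.09%. The lowest TNFSF15 sample was thus within the range of the markers. The part of epithelial cells in the changes of the 3 genes was not tested.

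**Figure D2:**
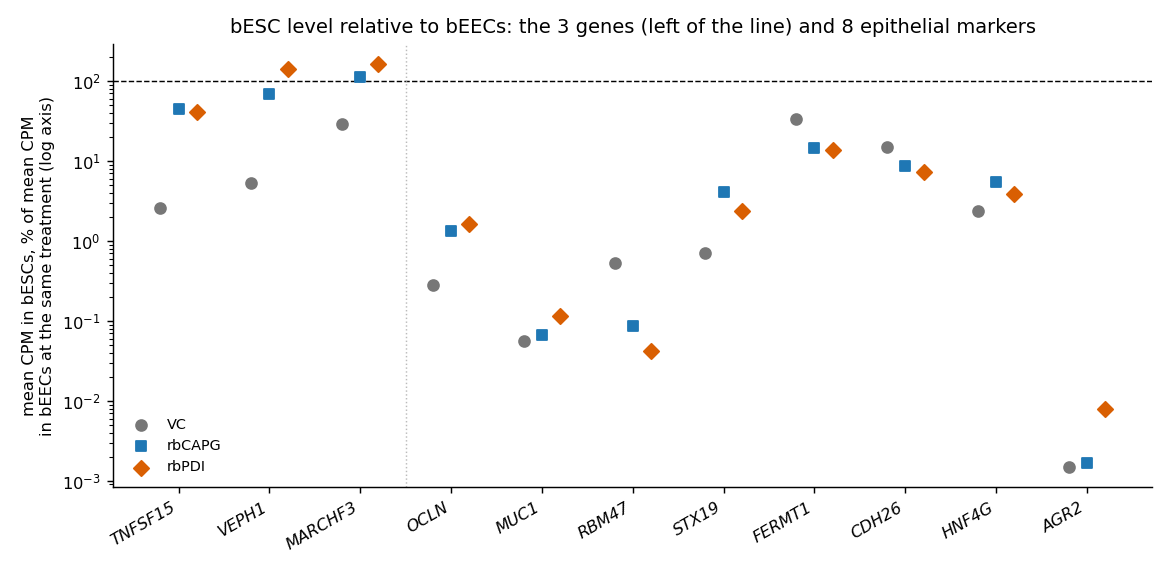
Mean CPM in bESCs as a percentage of mean CPM in bEECs at the same treatment, on a log axis, for the 3 genes and 8 epithelial markers (n = 3 samples per mean). With either protein TNFSF15, VEPH1 and MARCHF3 lie between 40.4% and 162%, and the markers lie at 14.4% or lower.

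Other cell types were followed in the same way, and their part in the changes was not tested. The 3 leukocyte markers CD14, AIF1 and SLAMF8 summed to 5.83 to 21.5 CPM in VC bESCs, 14.4 to 28.9 with rbCAPG and 14.7 to 26.3 with rbPDI, and edgeR called 0 of 3 in bESCs with either protein, where 2 and 1 had an unadjusted p under 0.05 and DESeq2 called 1 with each. The 4 endothelial markers TEK, SELP, ESM1 and CLEC1A summed to 252 to 340 CPM in VC bESCs, 449 to 736 with rbCAPG and 381 to 575 with rbPDI, with 0 of 4 called by edgeR or DESeq2 and 1 and 0 at an unadjusted p under 0.05. Nearly all of this sum was SELP, with means of 162, 451 and 299 CPM, and ESM1, with 121, 111 and 171 CPM. TEK stayed at 0.303, 0.303 and 0.305 CPM, and CLEC1A had 0.115, 0.135 and 0.0771 CPM. In VC bEECs the same markers summed to 757 to 1290 CPM, mainly ESM1 with a mean of 1010 CPM. In bEECs the summed stromal markers were 15.3 to 28.8 CPM with VC, 39.5 to 78.2 with rbCAPG and 32.1 to 71.1 with rbPDI, while in bESCs they were 415 to 602 CPM over all treatments. Of the 8 stromal markers edgeR called 0 higher in bEECs with rbCAPG, where 8 had an unadjusted p under 0.05 and DESeq2 called 8, and with rbPDI it called 1, where 8 also had an unadjusted p under 0.05 and DESeq2 called 4. The 1 was PCOLCE2, a procollagen processing enhancer (log2 change 1.70, SE 0.36, edgeR adjusted p = 0.0307).

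The proteins rbCAPG and rbPDI were compared at the same dose and time, which the mean change over both proteins did not use. The rbCAPG samples did enter the study's lists that gave the identifiers. In bESCs the log2 difference of rbPDI from rbCAPG was −0.14 (95% interval −1.35 to 1.07) for TNFSF15, 0.59 (−0.45 to 1.63) for VEPH1 and 0.37 (−0.26 to 1.00) for MARCHF3. In bEECs it was −0.01 (−1.22 to 1.2), −0.41 (−1.45 to 0.63) and −0.17 (−0.80 to 0.46). The edgeR adjusted p was 1 for each of these 6 differences, so 0 of 3 genes were called in bESCs (0% of all tested genes) and 0 of 3 in bEECs (0%). At an unadjusted p under 0.05 edgeR had 319 genes in bESCs and 103 in bEECs, and DESeq2 called 0 genes in each, with 491 and 174 at an unadjusted p under 0.05. None of the 3 genes was among them by edgeR.

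The intervals leave room for unlike responses of more than 2-fold in either direction for TNFSF15. Its order of proteins also differed between animals in bESCs, with rbCAPG above rbPDI in animals 1 and 2 and below it in animal 3. Without rbPDI bESC replicate 1, the shallowest library, the TNFSF15 difference was 0.32 in place of −0.14. It was −1.10 without rbPDI bESC replicate 3 and 0.47 without rbCAPG bESC replicate 2. The VEPH1 difference in bESCs was 1.39 in place of 0.59 without rbCAPG bESC replicate 2.

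Differences between the 3 animals at equal treatment were tested with a term for the animal within each cell type. VEPH1 had the same order in all 6 groups, with animal 2 highest and animal 1 lowest. Its edgeR adjusted p was 0.0520 in bEECs and 0.0984 in bESCs, so it did not pass the threshold in either, although its unadjusted p was 0.00376 and 0.0231 in this edgeR fit. It passed with DESeq2, at adjusted p = 0.00607 in bEECs and 0.0374 in bESCs, and without the filter on low counts, at edgeR adjusted p = 0.0257 and 0.0452. TNFSF15 had an edgeR adjusted p of 0.485 in bEECs and 0.277 in bESCs, and MARCHF3 of 0.425 and 0.378. TNFSF15 passed in bEECs in a fit of the bEEC samples alone, at edgeR adjusted p = 0.0348, as did VEPH1 at 0.00997. In bESCs TNFSF15 passed without rbCAPG bESC replicate 3, at edgeR adjusted p = 0.0447, and VEPH1 without rbPDI bESC replicate 2, at 0.0467. In the fit to all samples 0 of 3 genes were called in either cell type, against 6.99% of all tested genes in bEECs and 15.9% in bESCs. The spread between replicates, as a biological coefficient of variation, was 0.483 for TNFSF15, above the 0.302 of genes of like abundance, 0.427 for VEPH1 (0.414) and 0.273 for MARCHF3 (0.290).

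TNFSF15 signals in a pathway that these cultures also read out in other genes, so 13 genes of TNF receptors and NF-kB signaling were examined. All 13 were in lists the study made on these samples, so their direction is not independent evidence. In bESCs 6 of 13 were called higher with rbCAPG (0.0948% of all tested genes) and 8 of 13 with rbPDI (0.173%), and in bEECs 10 of 13 (0.513%) and 12 of 13 (0.770%). The median log2 change was 1.75 and 1.81 in bESCs and 2.26 and 2.53 in bEECs, against −0.01, 0.00, 0.02 and −0.01 over all genes. With the replicate block within cell type the rbCAPG count in bESCs was 10, and in a fit of the bESC samples alone it was 0, as was the rbPDI count. Without VC bESC replicate 1 the bESC counts were 0 and 2, and without VC bESC replicate 3 they were 0 and 1. Without rbCAPG bESC replicate 2 the rbCAPG count was 1, and without rbPDI bESC replicate 2 or 3 the rbPDI count was 4. In bEECs the rbCAPG count was 6, 5 and 6 without VC bEEC replicate 1, VC bEEC replicate 3 and rbCAPG bEEC replicate 3, and the rbPDI count was 7 without VC bEEC replicate 3.

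Among the inhibitors of the pathway, NFKBIA, which holds NF-kB in the cytoplasm, rose in bESCs by 1.75 (SE 0.27, edgeR adjusted p = 0.0133) on the log2 scale with rbCAPG and in bEECs by 3.30 (SE 0.28, edgeR adjusted p = 9.24e-06). TNFAIP3, a ubiquitin-editing enzyme that ends NF-kB signaling, rose by 2.61 (SE 0.39, edgeR adjusted p = 0.0128) in bESCs and by 2.26 (SE 0.39, edgeR adjusted p = 0.00800) in bEECs with rbCAPG. The receptor gene CD40, a TNF receptor of antigen-presenting cells, rose with rbPDI by 1.69 (SE 0.33, edgeR adjusted p = 0.0494) in bESCs and by 3.07 (SE 0.34, edgeR adjusted p = 0.000109) in bEECs. TNFRSF11B, a secreted decoy receptor, had a log2 change of 3.92 (SE 0.89, edgeR adjusted p = 0.118) in bESCs with rbPDI and rose by 3.58 (SE 0.78, edgeR adjusted p = 0.0399) in bEECs. The mean change with protein differed between the cell types for 0 of 13 by edgeR and 1 of 13 by DESeq2, with 4 of 13 smaller in bESCs at an unadjusted edgeR p under 0.05, with a median difference (bESCs minus bEECs) of −0.54 and 4 of 13 larger in bESCs. The differences of these 13 genes ran from −2.67 to 0.78.

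**Figure D3:**
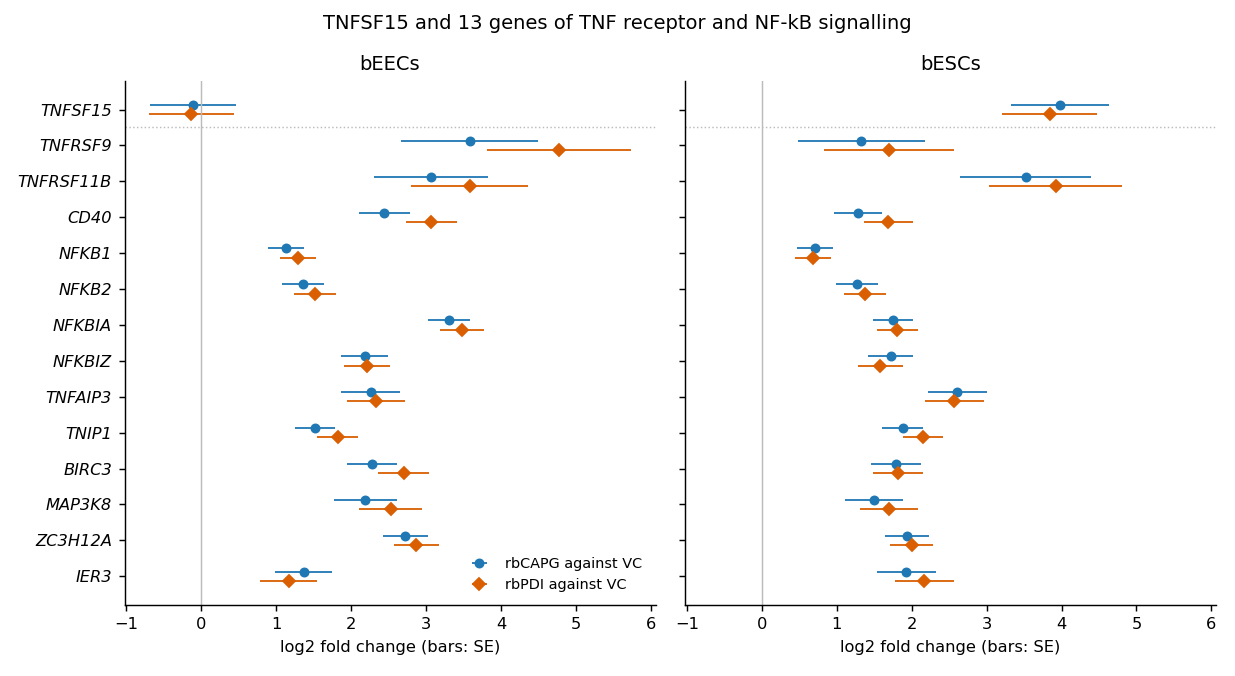
Log2 changes with rbCAPG and rbPDI against VC in bEECs (left) and bESCs (right) for TNFSF15 and 13 genes of TNF receptors and NF-kB signaling; bars are SE from the edgeR fit. TNFSF15 lies near 0 in bEECs and at 3.98 and 3.84 in bESCs, while the 13 genes lie above 0 in both cell types.

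MARCHF3 and VEPH1 were set beside genes of their own kinds. Of 5 ubiquitin ligases and deubiquitinases, 2 were called higher with each protein in bESCs, TNFAIP3 and BIRC3, which are also among the 13 genes above, and 3 with each protein in bEECs. Over all tested genes the shares called higher were 0.0948% and 0.173% in bESCs and 0.513% and 0.770% in bEECs with rbCAPG and rbPDI. RNF125, a ubiquitin ligase of antiviral signaling, rose by 1.90 (SE 0.39, edgeR adjusted p = 0.0349) in bEECs with rbCAPG and had 1.23 (SE 0.38, edgeR adjusted p = 0.808) in bESCs. Of these 5 genes 1 had a larger mean change in bESCs and 0 were called for the difference by edgeR or DESeq2, with 0 at an unadjusted p under 0.05. Of 5 genes of PH domain proteins, edgeR called 0 and 1 higher in bESCs with rbCAPG and rbPDI, and 2 and 3 in bEECs, against the same shares of all tested genes (0.0948%, 0.173%, 0.513% and 0.770%). In bESCs 2 had an unadjusted p under 0.05 with each protein, and DESeq2 called 0 and 2. STAP2, a signaling adaptor, was the gene called in bESCs with rbPDI (log2 change 1.52, SE 0.29, edgeR adjusted p = 0.0456), and it rose by 1.23 (SE 0.28, edgeR adjusted p = 0.0485) in bEECs. The difference between cell types in these PH domain genes ran from −1.27 to 1.75, and edgeR called 0 of 5, with 3 at an unadjusted p under 0.05 and 1 called by DESeq2. Both lists also came from the study's lists on these samples.

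Among the 52 genes with a symbol in the study's list of genes altered by rbCAPG in bESCs, 32 had a larger mean change with protein in bESCs than in bEECs. In 7 of these the mean change was positive in bESCs and negative in bEECs, namely TNFSF15, VEPH1, MARCHF3, GPR84, ABCC2, SLCO4A1 and RRAD. The mean log2 changes of TNFSF15 were 3.91 in bESCs and −0.12 in bEECs, those of VEPH1 3.25 and −0.93, and those of MARCHF3 1.80 and −0.40. Of the 190 genes with a symbol, the 5 largest differences were those of GPR84 with 5.21 (SE 2.76), ABCC2 with 4.51 (SE 1.29), VEPH1, TNFSF15 and CSF3 with 3.37 (SE 3.05), and MARCHF3 was at position 10. GPR84, a fatty acid receptor of myeloid cells, was at 0 CPM in all 3 rbCAPG bEEC samples, and CSF3, a growth factor of neutrophils, in all 3 VC bESC samples, so the fitted differences of these genes depend on the prior count and carry wide errors. ABCC2, an export pump of the apical membrane, had 0.0720 ± 0.0363 CPM in VC bEECs and reached 1.43 ± 1.38 CPM in rbCAPG bESCs and 1.63 ± 0.858 CPM in rbPDI bESCs. Unlike the 3 genes, GPR84 and ABCC2 were thus near 0 in bEECs at baseline.

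**Figure D4:**
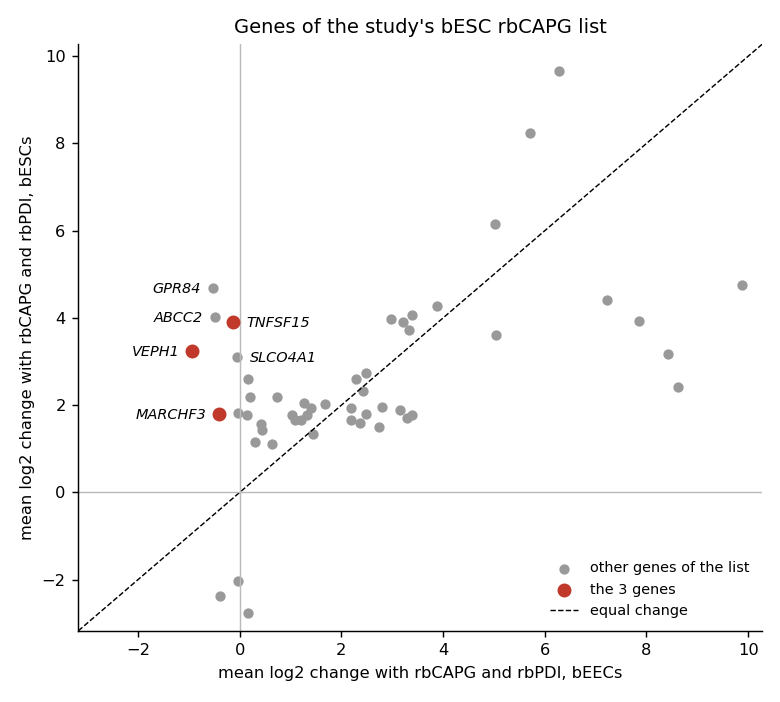
Mean log2 change over rbCAPG and rbPDI in bESCs (vertical axis) against that in bEECs (horizontal axis) for the 52 genes with a symbol in the study's list of genes altered by rbCAPG in bESCs; the dashed line marks equal change. TNFSF15, VEPH1 and MARCHF3 lie left of 0 on the horizontal axis and between 1.80 and 3.91 on the vertical axis.

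The genes with the most similar pattern were found by the root mean square difference of log2 CPM, centered on each gene's mean, over the 18 samples, as a description. For TNFSF15 the nearest with a symbol were SLCO4A1, an organic anion transporter, with a difference of 1.02, the closest of all tested genes, PIK3R5, a regulatory subunit of PI3 kinase, with 1.10, and VEPH1 with 1.11, against a median of 2.03 over all genes. SLCO4A1 had 10.1 ± 3.09 CPM in VC bEECs and 0.266 ± 0.108 in VC bESCs, and reached 2.52 ± 3.13 and 2.02 ± 0.750 CPM in bESCs with rbCAPG and rbPDI. PIK3R5 differed from TNFSF15 in bEECs, where it had 2.30 ± 0.214 CPM with VC and 6.48 ± 2.26 with rbCAPG. For VEPH1 the nearest were MARCHF3 with 0.91, PDXK, a vitamin B6 kinase, with 0.97, and IER3, an immediate early gene, with 1.07, against a median of 1.49. For MARCHF3 they were PDXK with 0.65, HEXIM2, an inhibitor of transcription elongation, with 0.66, and IRF1, an interferon-responsive transcription factor, with 0.71, against a median of 0.97. The root mean square of MARCHF3 around its own mean was 0.72. Among all tested genes these were at positions 223, 310 and 1015, and IER3 was at 95 for VEPH1. In bEECs, where the mean log2 changes of VEPH1 and MARCHF3 were −0.93 and −0.40, PDXK had 1.09, IER3 1.27 and IRF1 0.45. HEXIM2 had 3.57 CPM in VC bEECs and 7.21 with rbCAPG. These genes thus did not share the lower exposed bEEC values of VEPH1 and MARCHF3, which were not tested and entered the choice of both. TNFSF15 thus stood nearer to VEPH1 than to MARCHF3. Its distance to MARCHF3 was 1.53.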

How the data were processed

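RNA from 18 samples of bEECs and bESCs was analysed. After trimming with Trimmomatic, the authors aligned the paired-end SMART-Seq reads with STAR and summed them per Ensembl gene with featureCounts, splitting any read with more than 1 match or gene into fractions. The deposited values are therefore estimated counts, not normalized, and 23.3% were not whole. They were rounded, filtered with filterByExpr over the 6 groups (17931 of 36075 genes kept), scaled by TMM and tested in edgeR 4.0.16 (quasi-likelihood F-test, R 4.3.3) with 6 group means (12 residual degrees of freedom). P-values were adjusted over all tested genes. Intervals use the residual and prior (4.36) degrees of freedom.

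Samples were grouped by their labels, and 0 columns were left unused. The members, the gene lists and the markers were chosen with earlier results of these data known. No p is printed for the values that chose the members: their changes with protein, the difference between cell types in these changes, and the VC levels. The call of the members for a larger mean change in bESCs uses an adjusted p but only restates that choice. Named genes are the members, genes of the lists, the 3 nearest genes with a symbol, the 5 largest differences, and some other genes of the study's lists. Symbols came from the study's lists (190 of 245 identifiers). PTX3 has no identifier there and was not analysed here.

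Replicate numbers pair the samples, since a number is 1 animal. The correlation of deviations from the group means averaged 0.481 in bEECs and 0.396 in bESCs, above 0.1 in 9 of 9 pairs each, and 0.175 across cell types. No pair of replicates agreed within sampling noise. The cultures of 1 animal differ by device, so the spread holds animal and device.

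The alternatives were DESeq2 1.42.0 (Wald test, local fit), its size factors in edgeR, no filter, at least 10 counts in at least 9 samples, unrounded values, a replicate block, fits of the 9 samples of one cell type, and each sample left out. The procedures were tested on simulated data. Sequences and coordinates of the members were not analysed here.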

Additional observations from a re-analysis of the deposited data

Results flagged for a closer look

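Groups of 3 samples are too small for a check of single outlying samples, and every sample entered the comparisons. VEPH1 and MARCHF3 were set apart because their changes had opposite directions in the cell types, above the VC sample of the same animal in 3 of 3 animals in bESCs and below it in 3 of 3 animals in bEECs, with each protein. The log2 change in bESCs minus that in bEECs was 3.68 for VEPH1 with rbCAPG and 4.68 with rbPDI, and 1.93 for MARCHF3 with rbCAPG and 2.47 with rbPDI. No p is given for the difference, because it chose these genes. TNFSF15 was not set apart in this way, since its bEEC samples moved in both directions.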

How the results depend on the processing

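Of 292 values recomputed under the alternatives with all samples, 278 were counted as kept, as were 318 of 342 with a sample left out. A tested difference was kept if its direction and side of the threshold stayed, and a test of animals if its side stayed. Changes with protein and VC differences were kept if they moved by less than the SD between replicates, whatever their sign. The TNFSF15 bEEC changes of 0.32 and 0.30 without VC bEEC replicate 3 thus counted as kept. Counts of genes were kept if their ratio to the main count stayed within a set limit. The exceptions with all samples were the following, and their cause was not tested. In fits of one cell type, the TNFSF15 difference of rbPDI from rbCAPG in bEECs was 0.02, the adjusted p for animals in bEECs was 0.0348 for TNFSF15 and 0.00997 for VEPH1 (edgeR), and the bESC counts of TNF and NF-kB genes called higher were 0 with rbCAPG and 0 with rbPDI. With DESeq2 the adjusted p of VEPH1 for animals was 0.0374 in bESCs and 0.00607 in bEECs, the rbCAPG count in bESCs was 11, and 18 genes were called with a larger mean change in bESCs. Without the filter the edgeR adjusted p of VEPH1 was 0.0452 in bESCs and 0.0257 in bEECs. With the replicate block (animal) 5 genes, and with the replicate block within cell type 19 genes, had a larger mean change in bESCs, and the rbCAPG count in bESCs was 10; the block changed no other call.

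With 1 sample left out at a time, the difference of rbPDI from rbCAPG for TNFSF15 ran from −1.10 to 0.47 in bESCs and from −0.16 to 0.17 in bEECs. The edgeR adjusted p for animals in bESCs ran from 0.0447 to 0.764 for TNFSF15 and from 0.0467 to 0.564 for VEPH1, the lowest without rbCAPG bESC replicate 3 and rbPDI bESC replicate 2. The VEPH1 change with rbCAPG in bESCs ran from 2.13 to 3.29. The counts of TNF and NF-kB genes called higher ran from 0 to 6 (rbCAPG) and 1 to 7 (rbPDI) in bESCs, and from 5 to 8 and 7 to 11 in bEECs. Genes called with a larger mean change in bESCs ran from 0 to 4, with 1 without VC bEEC replicate 1, VC bEEC replicate 2, rbPDI bEEC replicate 3 or rbCAPG bESC replicate 3. The VC bESC counts of VEPH1, 5 to 16, limit the precision of its fold changes.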
